A study of Mus musculus with 4 samples.

Results

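The extracellular matrix genes other than collagens were examined in regenerating mouse liver: the basement membrane proteins, the elastic fibre and microfibril proteins, the proteoglycans, the crosslinking enzymes and the adhesive glycoproteins. The list held 40 names, and a probe set was a member when its single gene symbol in the platform annotation equalled one of them. In all, 36 of the 40 names were matched, by 81 of the 45101 probe sets on the array and as 36 of the 18193 genes named there. Fbn1, Efemp2, Loxl2 and the name Asporin had no probe set with that single symbol. The array annotates asporin as Aspn, which is given below as a related gene.

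Livers came from athymic BALB/c nu/nu mice, a strain without mature T cells that keeps innate immune cells, that had all been through the same injury. Per the labels they received 23 injections of carbon tetrachloride, a hepatotoxin, at 0.25 ml/kg, then 1000000 human bone marrow mesenchymal stem cells into the spleen, partial hepatectomy on day 21, and removal of the liver 8 days after surgery. The cells expressed OGFRL1 in one group (n = 2 arrays) and the fluorescent protein EGFP in the control group (n = 2 arrays), and no group without cells or without injury was analysed here. Neither the age of the animals nor whether each array had its own animal is stated in the labels. The p-values therefore reflect the scatter among 4 arrays and may hold technical scatter alone. The array carries mouse probe sets, and how far human transcripts bind them was not tested.

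The matrix of liver is made mostly by stellate cells and portal fibroblasts, with laminins, nidogens and perlecan forming the basement membranes of vessels and ducts. Fibrils of collagen are spaced by small leucine-rich proteoglycans such as decorin, lumican and biglycan, and lysyl oxidases crosslink collagen and elastin into fibres that resist breakdown. Repeated carbon tetrachloride is known to cause fibrosis, in which these genes are commonly raised. In whole tissue, fewer cells of a type and less RNA per cell cannot be told apart.

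Array medians lay between 11.6 and 12.5 signal units. The deposited arrays had been scaled to the same trimmed mean, so like medians do not show like brightness before scaling. A gene entered the test when its brightest probe set averaged 11.6 signal units or more, that is, when it reached the median of all probe sets, and 11942 genes did. Of these, 61 passed an adjusted p of 0.05, or 0.511% of the genes tested. Fold changes are OGFRL1 minus EGFP on the log2 scale of the signal plus 3.51, which understates the change of dim genes, and their median over all genes tested was 0.04. The spike-in controls were lower in the OGFRL1 group, at a mean log2 fold change of -0.43 for the 4 Cre probe sets and -0.32 for the 14 BioB, BioC and BioD probe sets. Hepatocyte markers, which define the labelled tissue, were present, with a summed signal between 37495 and 71674 on each array.

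Most matrix genes had higher signals in OGFRL1 livers, but 1 of the 32 that could be tested passed the threshold. Calls in this direction made up 0.36% of all genes tested. The member called was Nid1, which encodes nidogen-1, a linker between laminin and collagen IV networks. Of the 32 tested members 29 had a log2 fold change above 0 (55.6% of all genes tested did), and their median was 0.42, ranging from -0.29 for Hspg2 to 1.41 for Nid1. Both OGFRL1 arrays lay above both EGFP arrays for 17 members, where 27.0% of all genes tested did so, and below them for 1 member, where 20.5% did. Among those 17, Fbln2, Fmod, Ogn and Thbs1 passed the filter on mean signal only through their OGFRL1 arrays. An unadjusted p under 0.05 in limma was reached by 5 of the 32 members, all higher. Of all genes tested, 15.3% reached it in either direction, and 9.01% reached it and were higher. Of the 45 member probe sets over the filter, 42 were above 0, and of the 10 members with more than 1 such probe set, 8 had all of them above 0. With no filter on low signals, 32 of 36 members were above 0 and the median was 0.40. The members were chosen with results of these arrays known, so these counts describe the list and carry no test of it.

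**Figure D1:**
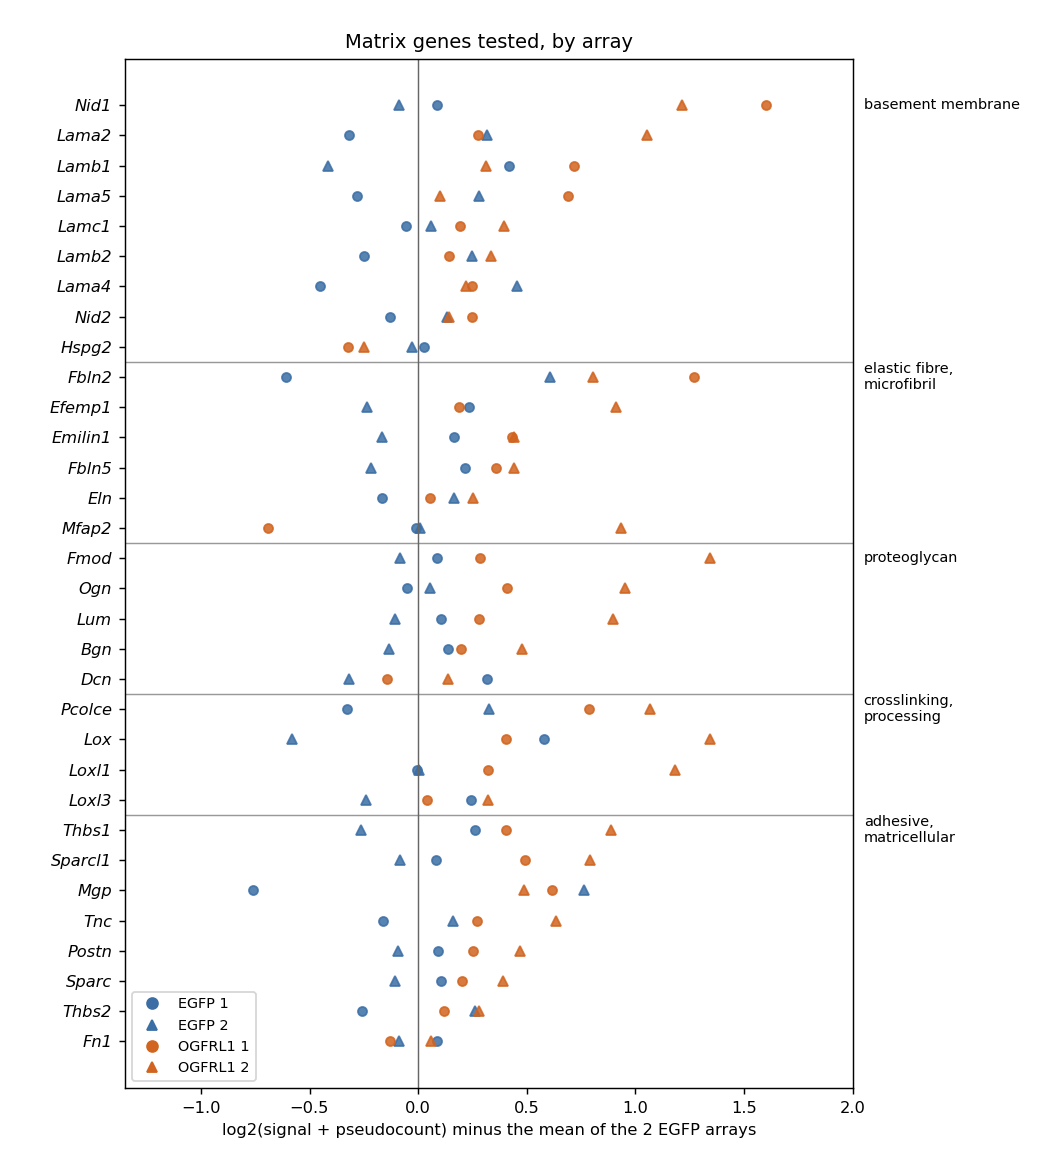
Each row is a matrix gene that was tested, grouped by role, and each symbol is 1 array (circle, replicate 1; triangle, replicate 2; blue, EGFP; orange, OGFRL1). The x axis is log2(signal + 3.51) minus the mean of the EGFP arrays. Most orange symbols lie to the right of 0, and OGFRL1 array 2 is the rightmost in 22 of 32 rows. In the rows of Dcn, Fn1 and Mfap2 the OGFRL1 symbols lie on either side of 0, while both lie below it for Hspg2.

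The 4 arrays did not contribute equally. OGFRL1 array 2 gave the highest signal for 22 of the 32 members and the lowest for 0, while over all genes tested it was the highest for 27.3%. OGFRL1 array 1 was the highest for 5 members. Against the mean of the EGFP arrays, the median member stood 0.47 higher on the log2 scale in OGFRL1 array 2 and 0.27 higher in OGFRL1 array 1. The EGFP arrays split evenly, with EGFP array 1 above EGFP array 2 for 17 of 32 members and a median difference of 0.11. OGFRL1 array 2 was above OGFRL1 array 1 for 25 members, with a median difference of 0.21. Without OGFRL1 array 2 the median over the members was 0.27, with 28 of 32 above 0.

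Basement membrane genes showed the smallest median of the 5 role groups, 0.29 over 9 members, together with the largest single difference. Of the 9, 8 were above 0, 3 were higher without overlap and 1 was lower without overlap. For this and the other role groups, the shares over all genes tested were 27.0% higher and 20.5% lower without overlap. Nid1 had signals of 426 and 377 in EGFP arrays 1 and 2, and of 1222 and 934 in OGFRL1 arrays 1 and 2. The groups were far apart: the lower OGFRL1 array was well above the higher EGFP array. Nid1 thus rose from 402 ± 34.5 (SD, n = 2) to 1078 ± 203, a log2 fold change of 1.41 ± 0.17 (SE), or 2.65-fold, with a limma adjusted p of 0.0433 and a 95% interval of 0.99 to 1.82. Its other probe sets pointed the same way. The one over the filter had 17.4 and 32.0 in EGFP livers and 49.2 and 48.5 in OGFRL1 livers and differed by 0.94 on the log2 scale, and the one under the filter by 0.75. The call on Nid1 was close to the threshold and was lost when OGFRL1 array 1 (adjusted p = 0.262) or OGFRL1 array 2 (adjusted p = 0.211) was left out, with log2 fold changes of 1.21 and 1.60. It was also lost after quantile normalization (adjusted p = 0.0545), without an intensity trend (0.151), without a filter (0.0887), under a stricter filter (0.0542) and as the mean over probe sets (0.0924).

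The other nidogen did not pass the threshold, and the difference between the nidogens was not tested. Nid2, a paralog with overlapping binding partners, had 30.8 and 37.7 in EGFP livers and 41.1 and 38.0 in OGFRL1 livers. Its OGFRL1 arrays were above the EGFP arrays, the nearest pair only just, and the difference was 0.20 ± 0.23 (adjusted p = 0.745). Hspg2 encodes perlecan, the large heparan sulfate proteoglycan of basement membranes. It had 94.6 and 90.8 in EGFP livers and 73.4 and 77.5 in OGFRL1 livers, the only tested member whose OGFRL1 arrays both lay below the EGFP arrays. The log2 fold change was -0.29 ± 0.17 (adjusted p = 0.490), and its second probe set had 0.17, so the probe sets of Hspg2 differed in sign.

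The 6 laminin chains on the list were above 0 and none passed the threshold. Laminins assemble as trimers of an alpha, a beta and a gamma chain, and chains that are not on the list, given below, were in part below 0. Lama2, the alpha chain known from muscle and nerve basement membranes, had 16.7 and 27.8 in EGFP livers and 26.9 and 48.7 in OGFRL1 livers. OGFRL1 array 1 lay just under EGFP array 2, so the groups overlapped, and the log2 fold change was 0.67 ± 0.37 (adjusted p = 0.456). The beta chain Lamb1 had 0.51 ± 0.32 and the alpha chain Lama5 0.39 ± 0.30, both with overlap. Lamc1, the gamma chain shared by most laminins, had 42.3 and 46.2 against 51.0 and 59.3, with no overlap and a difference of 0.29 ± 0.21 on the log2 scale (adjusted p = 0.569). Lamb2 and Lama4, the latter a chain of vessel walls, had 0.24 ± 0.32 and 0.23 ± 0.43. Lama4 passed the filter only through its OGFRL1 arrays, with an EGFP mean of 11.2. Without EGFP array 1 the median of this group was 0.11, and Lama4 and Lamb2 were then below 0, at -0.22 and -0.0092. Without EGFP array 2 it was 0.49.

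The start regions of Nid1 and Hspg2 are printed because they are the members with the highest and the lowest fold change, both of the basement membrane. Of the 40 names, 23 had a promoter in the RefSeq table of GRCm38.p6, with 30 windows in all. Each sequence is the 250 bases before an annotated start, 5′ to 3′ on the gene's strand, in lower case with motif matches on either strand in capitals. The motifs searched were the GC box GGGCGG, the CCAAT box CCAAT, the TATA box TATAAA, the AP-1 site TGACTCA, the TEAD site GGAATG and the SMAD palindrome GTCTAGAC, and no match overlapped another in the promoters shown. The Nid1 window lies at chr13:13437352-13437601 (plus strand) and the Hspg2 window at chr4:137468553-137468802 (plus strand).
Nid1: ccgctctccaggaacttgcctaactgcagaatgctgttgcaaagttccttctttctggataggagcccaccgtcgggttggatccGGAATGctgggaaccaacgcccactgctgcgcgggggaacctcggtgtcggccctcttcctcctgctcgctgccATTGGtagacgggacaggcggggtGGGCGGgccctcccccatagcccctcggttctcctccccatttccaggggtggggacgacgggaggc
Hspg2: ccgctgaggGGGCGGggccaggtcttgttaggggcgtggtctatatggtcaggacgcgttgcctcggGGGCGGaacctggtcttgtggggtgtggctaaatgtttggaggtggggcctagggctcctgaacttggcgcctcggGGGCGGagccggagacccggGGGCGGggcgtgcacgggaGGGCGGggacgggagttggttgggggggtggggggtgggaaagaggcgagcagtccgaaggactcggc
The Nid1 window held 1 GC box, 1 CCAAT box read on the other strand and 1 TEAD site, and the Hspg2 window held 5 GC boxes and none of the other motifs. Over all 32851 windows of this length, 32.7% held a GC box, 33.8% a CCAAT box, 12.4% a TATA box, 12.6% a TEAD site, 4.46% an AP-1 site and 0.167% the SMAD palindrome. Among the 30 member windows, 18 held a GC box, 6 a CCAAT box, 5 a TATA box, 3 a TEAD site, and 0 an AP-1 site or the SMAD palindrome. A match describes the letters in these windows and shows no binding.

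**Figure D2:**
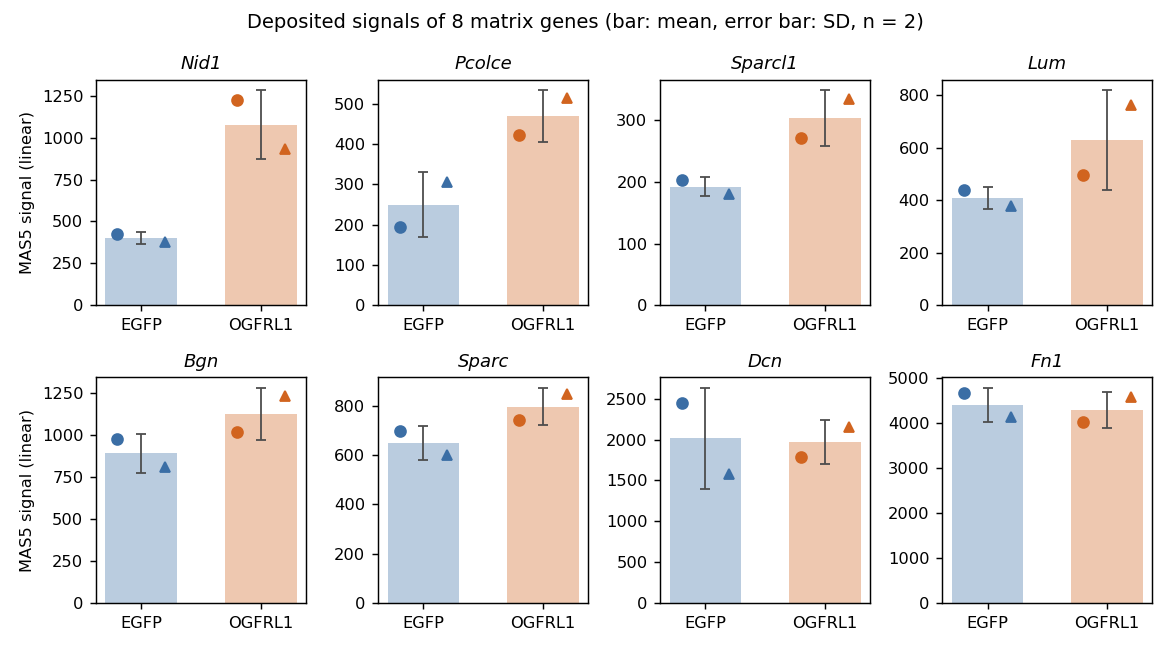
Deposited MAS5 signals (linear, y axis from 0) of 8 matrix genes in EGFP and OGFRL1 livers. Bars are means, error bars SD (n = 2), circles replicate 1 and triangles replicate 2. Nid1 goes from 402 to 1078, Pcolce, Sparcl1, Lum, Bgn and Sparc are higher in both OGFRL1 arrays, and Dcn and Fn1 overlap between the groups.

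Crosslinking and collagen processing genes had the highest median of the role groups, 0.81 over 4 members, all above 0, none past the threshold and 2 higher without overlap. Lox, 1 of these 4, passed the filter only through its OGFRL1 arrays, with an EGFP mean of 10.5. Pcolce encodes a secreted enhancer of the protease that trims procollagen before fibrils form. It had 194 and 306 in EGFP livers and 423 and 514 in OGFRL1 livers, with no overlap although the EGFP arrays were far apart. The log2 fold change was 0.93 ± 0.24 (adjusted p = 0.146), and its second probe set had 0.52. Without EGFP array 2, which leaves 1 EGFP array, the log2 fold change of Pcolce was 1.25. Its start region, read at chr5:137611405-137611654 on the minus strand, is shown as that of the processing gene with the largest difference.
Pcolce: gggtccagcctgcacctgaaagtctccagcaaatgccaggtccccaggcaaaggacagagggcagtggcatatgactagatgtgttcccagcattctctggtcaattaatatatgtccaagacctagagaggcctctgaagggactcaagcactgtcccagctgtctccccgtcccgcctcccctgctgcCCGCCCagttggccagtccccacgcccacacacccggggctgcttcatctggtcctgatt
It held 1 GC box on the other strand and none of the other motifs.

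Lysyl oxidases, the copper enzymes that crosslink collagen and elastin, were read at low signals. Loxl1, which is needed for elastic fibre upkeep, had 29.3 and 29.5 in EGFP livers and 37.6 and 71.1 in OGFRL1 livers. The groups did not overlap but the OGFRL1 arrays were far apart, and the log2 fold change was 0.75 ± 0.32 (adjusted p = 0.337). Lox, the founding member, had 15.8 and 5.16 against 13.6 and 29.3, which overlapped (0.87 ± 0.52, adjusted p = 0.493). A dimmer Lox probe set had -0.90, and the mean over its 3 probe sets gave 0.004. Loxl3 had 36.0 and 24.8 against 30.9 and 38.3, with a difference of 0.18 ± 0.28. The median of this group was 0.36 without OGFRL1 array 2 and 0.53 without EGFP array 2, and it was 0.23 as the mean over probe sets, where it was no longer the highest of the groups.

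Proteoglycans had a median of 0.59 over 5 tested members, 4 of them higher without overlap and none past the threshold. Fmod and Ogn are among these 4, and they passed the filter only through their OGFRL1 arrays, with EGFP means of 10.1 and 8.51. The median was 0.46 over 6 members without a filter and 0.34 over 3 under the stricter filter. Lum encodes lumican, a keratan sulfate proteoglycan that limits fibril width. It had 439 and 378 in EGFP livers and 494 and 762 in OGFRL1 livers, with OGFRL1 array 2 well above the other arrays. The log2 fold change was 0.59 ± 0.22 (unadjusted p = 0.0357 in limma, adjusted p = 0.281). Bgn, biglycan, had 971 and 805 against 1014 and 1231, so OGFRL1 array 1 was only just above EGFP array 1 (0.34 ± 0.16, adjusted p = 0.399). The other Bgn probe sets had 0.85 and 0.29, all 3 in one direction.

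Dcn, decorin, the proteoglycan that binds collagen fibrils and TGF-beta, had a fold change close to 0. It had 2449.5 and 1579 in EGFP livers and 1781 and 2160.1 in OGFRL1 livers, so the OGFRL1 arrays lay between the EGFP arrays. The log2 fold change was -0.004 ± 0.23, with a 95% interval of -0.55 to 0.55 (adjusted p = 0.996), which leaves room for changes in either direction. The sign of Dcn was positive after quantile normalization and median scaling. Fmod, fibromodulin, had 10.9 and 9.31 against 13.04 and 30.9 (0.81 ± 0.43), but of its 6 probe sets 3 were above 0 and 5 were under the filter. Ogn, osteoglycin, had 8.07 and 8.95 against 12.5 and 19.8 (0.68 ± 0.38), and its other probe set had -0.38. Vcan, versican, had 8 probe sets, all under the filter, with log2 fold changes from -0.98 to 1.14. The median of the proteoglycans was 0.28 without OGFRL1 array 2 and 0.90 without OGFRL1 array 1.

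**Figure D3:**
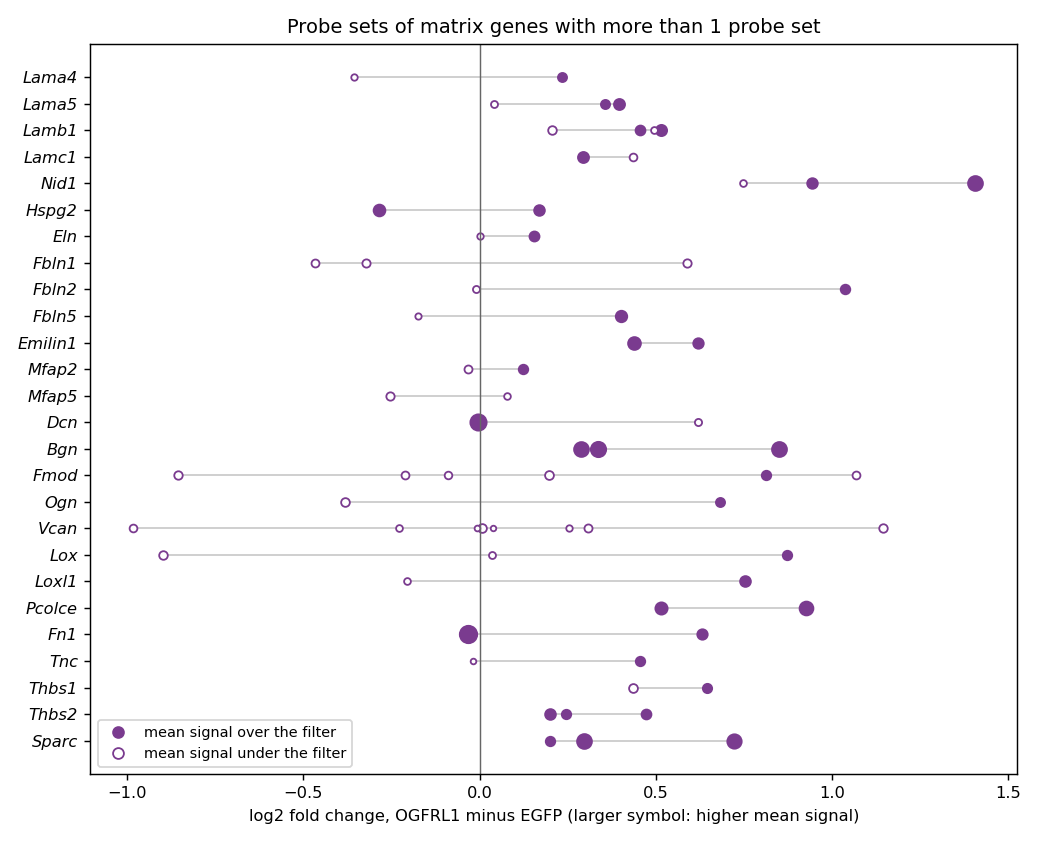
Log2 fold changes (x axis, OGFRL1 minus EGFP) of every probe set of the matrix genes that have more than 1. Filled symbols had a mean signal over the filter of 11.6, open symbols were under it, and larger symbols had higher signals. Filled symbols of a gene share their sign except for Hspg2 and Fn1, while open symbols scatter on both sides of 0.

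Elastic fibre and microfibril genes had a median of 0.42 over 6 tested members, all above 0, with 3 higher without overlap and none past the threshold. Emilin1, a glycoprotein at the elastin and microfibril interface, had 167 and 132 in EGFP livers and 202 and 203 in OGFRL1 livers. The OGFRL1 arrays were close together and above both controls, with a log2 fold change of 0.44 ± 0.17 (unadjusted p = 0.0400 in limma, adjusted p = 0.298) and 0.62 for its second probe set. Fbln2, a fibulin that is known from portal fibroblasts and vessel walls, had 5.25 and 16.8 against 28.7 and 19.8. Its EGFP arrays differed widely, so the log2 fold change of 1.04 ± 0.47 (adjusted p = 0.367) was 0.43 without EGFP array 1. Fbln5, which tethers elastin to cells, had 68.4 and 49.9 against 75.9 and 80.7 (0.40 ± 0.22, adjusted p = 0.445). Efemp1, fibulin-3, had 70.4 and 49.9 against 68.0 and 115, with overlap (0.55 ± 0.30).

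Both core proteins of the fibre that were tested had wide intervals. Eln, elastin itself, had 19.9 and 25.9 in EGFP livers and 23.7 and 27.7 in OGFRL1 livers, for a difference of 0.15 ± 0.28 on the log2 scale (95% interval -0.52 to 0.83). Mfap2, a microfibril protein, had 14.3 and 14.6 against 7.62 and 30.7, so the OGFRL1 arrays lay on either side of the controls (0.12 ± 0.55, 95% interval -1.19 to 1.44), and it was at -0.69 without OGFRL1 array 2. Fbln1, Mfap4 and Mfap5 were under the filter, with mean signals of 6.69, 4.08 and 6.59, and were not tested. The median of this group was 0.27 without OGFRL1 array 2.

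Adhesive and matricellular glycoproteins had a median of 0.41 over 8 members, 7 above 0, 5 higher without overlap and none past the threshold. Thbs1 is among these 5, and it passed the filter only through its OGFRL1 arrays, with an EGFP mean of 10.4. Sparcl1, a SPARC relative found around vessels, had 204 and 181 in EGFP livers and 272 and 335 in OGFRL1 livers. All of its OGFRL1 signals exceeded the controls, with a log2 fold change of 0.64 ± 0.17 (adjusted p = 0.150). Sparc, a collagen-binding protein of remodelling matrix, had 697 and 600.4 against 744 and 850.1 (0.30 ± 0.15, adjusted p = 0.410). Another Sparc probe set had 401 and 385 against 563 and 751, which differ by 0.72 on the log2 scale, so the size of the Sparc difference depended on the probe set. Postn, periostin, a protein of injured and fibrotic tissue, had 222 and 195 against 248 and 289 (0.36 ± 0.16, adjusted p = 0.349).

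Fn1, fibronectin, which hepatocytes also secrete into plasma, had a fold change close to 0 among these genes. It had 4666 and 4131 in EGFP livers and 4014 and 4579 in OGFRL1 livers, and the groups overlapped. The log2 fold change was -0.03 ± 0.15, with a 95% interval of -0.39 to 0.32 (adjusted p = 0.943), and it was 0.19 after quantile normalization and 0.02 with median scaling. A second Fn1 probe set had 17.1 and 33.2 against 47.2 and 32.2 (0.63), opposite in sign and with overlap. Thbs1, thrombospondin-1, which activates latent TGF-beta, had 12.9 and 7.91 against 14.6 and 21.8 (0.65 ± 0.38), and Tnc, tenascin-C, had 11.3 and 14.98 against 16.5 and 22.2 (0.45 ± 0.33). Thbs2 had 0.20 ± 0.26 with overlap. Mgp, the matrix Gla protein that inhibits calcification, had 13.2 and 44.5 in EGFP livers and 39.8 and 36.2 in OGFRL1 livers. EGFP array 2 was the highest and EGFP array 1 the lowest for Mgp. Its log2 fold change of 0.55 ± 0.49 was therefore -0.21 without EGFP array 1 and 1.31 without EGFP array 2. Without OGFRL1 array 2 the median of the adhesive group was 0.26.

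The role groups can be set side by side only as a description, since each holds few genes. Their medians were 0.29 for basement membrane, 0.41 for adhesive proteins, 0.42 for elastic fibre, 0.59 for proteoglycans and 0.81 for crosslinking and processing. Without OGFRL1 array 2 the medians were 0.25, 0.26, 0.27, 0.28 and 0.36 in the same order, and so lay close together. No test between the groups was made.

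**Figure D4:**
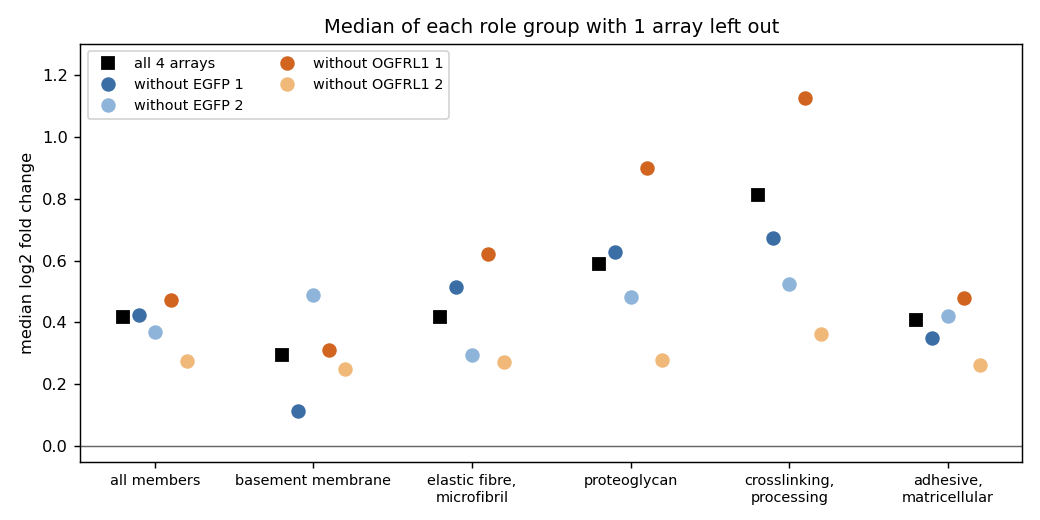
Median log2 fold change (y axis) of all matrix genes tested and of each role group, with all 4 arrays (black square) and with 1 array left out (circles). Medians without OGFRL1 array 2 (from 0.25 to 0.36) are lower than with all 4 arrays in each of the 5 groups, and the basement membrane median without EGFP array 1 is 0.11.

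Related matrix genes that are not on the list had a median fold change closer to 0. Of 84 such genes 60 were tested, and 40 were above 0 (55.6% of all genes tested were). Without overlap 22 were higher and 6 lower, against 27.0% and 20.5% of all genes tested. None passed the threshold, and 18 had an unadjusted p under 0.05 in limma, where 15.3% of all genes tested did. Their median was 0.13. Other elastic fibre genes had a median of 0.41 with 6 of 7 above 0, among them Ltbp1 and Ltbp2, proteins that hold or neighbour latent TGF-beta on microfibrils. Ltbp1 had 11.6 and 17.7 in EGFP livers and 34.7 and 50.8 in OGFRL1 livers (1.35 ± 0.32, adjusted p = 0.127), and Ltbp2 had a log2 fold change of 0.92 ± 0.27. Other adhesive genes had a median of 0.42 with 10 of 11 above 0. In that list Ccn2, a matricellular growth factor, had 110 and 118 against 221 and 259 (1.05 ± 0.16, adjusted p = 0.0554), and Mfge8, a phagocytosis bridge, had 0.63 ± 0.14.

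Other basement membrane genes had a median of -0.12 with 3 of 7 above 0. Col18a1, the collagen XVIII of vessel and hepatocyte basement membranes, had 1478 and 1501 in EGFP livers and 1143 and 1112 in OGFRL1 livers, lower in both (-0.40 ± 0.12, adjusted p = 0.209), and Ntn4, a netrin, had 0.74 ± 0.47 with overlap. The laminin chains of this list that were tested, Lamb3 and Lama3, were below 0. Lamb3, a chain of epithelial laminin, had 22.8 and 17.5 against 15.3 and 11.9, lower without overlap (-0.47 ± 0.32, adjusted p = 0.560). Lama3 had 10.3 and 52.7 against 16.5 and 12.7 (-0.63 ± 0.64). Both OGFRL1 arrays were above EGFP array 1, so the sign of Lama3 rests on EGFP array 2. Lama1 and Lamc3 were under the filter. Other proteoglycans had a median of 0.05 with 4 of 7 above 0, with Prelp at 0.42 ± 0.20 and the glypican Gpc3 at 0.37 ± 0.35. Aspn, asporin, had 3.29 and 9.80 against 7.97 and 1.66 and was under the filter. Other crosslinking and maturation genes had a median of 0.02 with 6 of 11 above 0. Crtap, a subunit of the collagen prolyl 3-hydroxylase complex, had 0.48 ± 0.14, and Tgm2, the tissue transglutaminase, had 2204 and 1969.5 against 2819.8 and 2799 (0.43 ± 0.13, adjusted p = 0.209).

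Matrix receptors had a median of 0.10 with 11 of 17 above 0. Itga6, the integrin alpha chain that binds laminin, had 36.7 and 36.5 in EGFP livers and 75.5 and 67.8 in OGFRL1 livers (0.90 ± 0.20, adjusted p = 0.109). Sdc4, the heparan sulfate receptor syndecan-4, had 1425 and 1370.2 against 905 and 914 (-0.62 ± 0.13, adjusted p = 0.0963). Neither passed the threshold, though the groups stood apart in both genes.

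**Figure D5:**
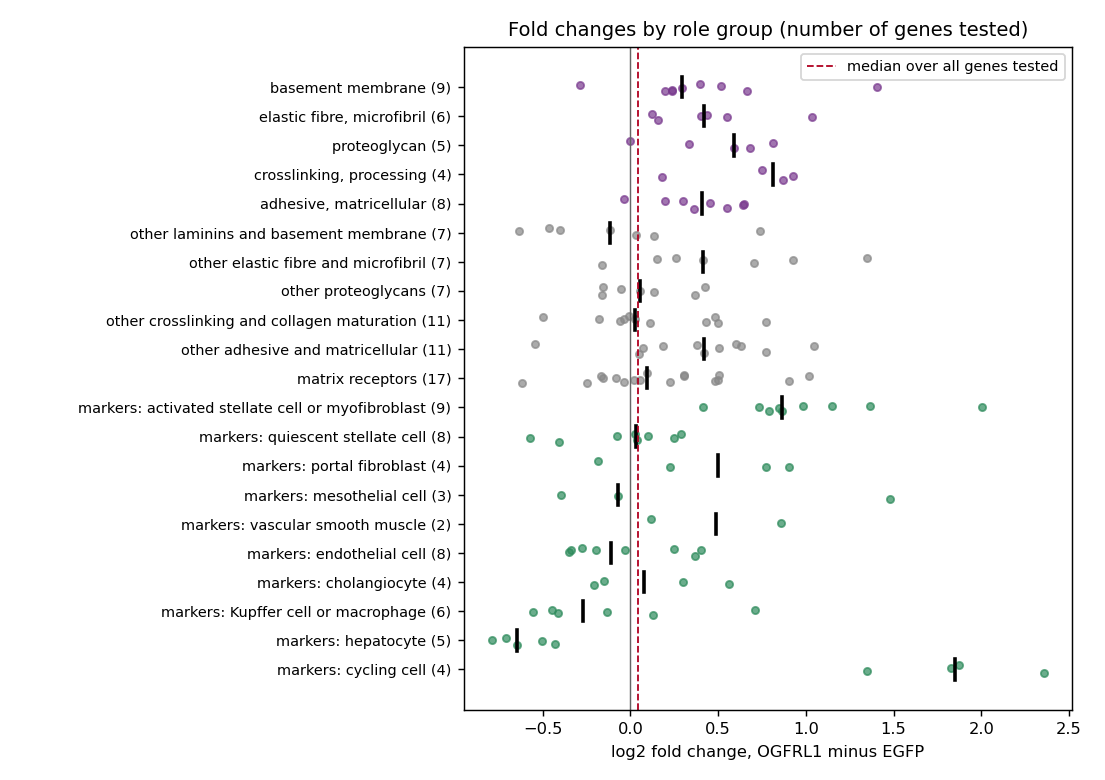
Log2 fold changes (x axis, OGFRL1 minus EGFP) of tested genes, with 1 row per list and the number of genes in brackets. Purple points are listed matrix genes, grey points related matrix genes and green points cell type markers, black bars are medians, and the dashed line is the median over all genes tested, 0.04.

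Among the cell type marker lists, cycling cells had 2 genes past the threshold and the other 9 lists had none. All 9 tested markers of activated stellate cells or myofibroblasts, of 10 listed, were above 0 (median 0.86), and their summed signal was 2263 to 2268 in EGFP livers and 3382 and 4944 in OGFRL1 arrays 1 and 2. Markers of quiescent stellate cells had a median of 0.03 with 5 of 8 above 0 and sums of 1930.4 to 1979 and 1840.01 to 1868. Portal fibroblast markers had 3 of 4 tested genes above 0 and sums of 200.4 to 205 and 229 to 252, with Gli1 and Pi16 under the filter. Mesothelial markers had 1 of 3 tested genes above 0 and a median of -0.07. The summed signal of all 5 was 48.9 and 56.7 in EGFP livers, 61.9 in OGFRL1 array 1 and 133 in OGFRL1 array 2, the array in which most matrix genes were highest. By their brightest probe sets, Gpm6a, Upk3b, Msln and Wt1 were highest in OGFRL1 array 2, at 44.9, 37.0, 21.1 and 18.3. Upk1b was lowest there, at 11.8, but its dimmer probe sets differed. One had 0.43 and 1.08 in EGFP livers and 12.5 and 24.1 in OGFRL1 livers. Another had 15.6 and 10.6 against 6.65 and 15.8, and the last 18.3 and 16.0 against 13.4 and 13.6. Msln and Upk3b were under the filter, and of the tested markers Gpm6a had a log2 fold change of 1.48, Wt1 of -0.07 and Upk1b of -0.40.

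Vascular smooth muscle markers had 2 of 2 tested genes above 0 (median 0.49), with Myh11, Cnn1 and Actg2 under the filter. The sums were 423 to 462 and 443 to 549. Most of each sum was Mylk, with 395 and 419 in EGFP livers and 396 and 492 in OGFRL1 livers. Endothelial markers had 3 of 8 above 0 and sums of 1557 to 1693 and 1448 to 1559, and cholangiocyte markers 2 of 4 and sums of 108 in both EGFP arrays and 102 to 109. Macrophage markers varied within each group, with sums of 3249 to 6653 and 3686 to 5876. The 5 tested hepatocyte markers were all below 0, with sums of 50455 to 71674 and 37495 to 41537, and the 4 cycling-cell markers all above 0, with sums of 494 to 735 and 1992 to 2383. The part of these cell type signals in the matrix differences was not tested.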

How the data were processed

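Liver RNA of 4 mouse samples was hybridised to 1-colour arrays after labelling with biotin from 100 ng of total RNA, per the labels. The deposited value of a probe set is a linear intensity, made by the authors with MAS5 per the submitters' processing notes; its version, the scanner and the detection calls are not given in the sources used here. Each array had a trimmed mean of 100.001, with 2% left out at either end, so each was scaled as a whole. In the platform annotation 34945 probe sets carried 1 gene symbol, 932 carried several and 9160 carried none, besides 64 controls. Only those with 1 symbol were named.

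Signals were log2-transformed after adding 3.51, the 25th percentile of all values. Each gene was read from its brightest probe set and tested when that averaged at least 11.6. The groups were compared with limma 3.58.1 in R 4.3.3 (lmFit, eBayes with an intensity trend, 2-sided, Benjamini-Hochberg over 11942 genes, threshold 0.05). The fit had 2 residual and 4.48 prior degrees of freedom, and it was tested on simulated data. Python 3.11.15 (numpy 2.4.6, pandas 2.3.3; figures with matplotlib 3.10.9) made the tables. Precision is limited by there being 2 arrays a group.

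The members, their role groups, the related genes and the markers were chosen with earlier results of these data known. Array values are given for members past the threshold, for the 3 members of a role group with the largest absolute moderated t and the one with the highest mean signal, and for members whose probe sets over the filter differ in sign. Of each related list the 2 genes with the largest absolute moderated t are named, and Aspn. Other members given by array (Nid2, Lamc1, Eln, Efemp1, Mfap2, Loxl3, Ogn, Thbs1, Tnc and Mgp), the related laminin chains Lamb3 and Lama3, and the markers singled out, were picked after their values were seen. Promoters are from RefSeq (GRCm38.p6), and no other coordinates were used. Alternatives covered scaling, pseudocount, filter, probe set choice, variance model, replicate block and each array left out.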

Additional observations from a re-analysis of the deposited data

How the results depend on the processing

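Of the 32 members tested, 23 kept their direction under each of the 15 alternatives that was run on them: 9 of these were run under all 15, and 14 were too dim for the stricter filter and were run under 14. Quantile normalization turned Dcn to 0.13 and Fn1 to 0.19, median scaling turned them to 0.046 and 0.015, and the mean over probe sets turned them to 0.31 and 0.30 and Lama4 to -0.061. With 1 array left out, which assumes that a lone array varies like the other group, log2 fold changes crossed 0 for Dcn (-0.32 to 0.31), Fn1 (-0.13 to 0.061), Lama4 (-0.22 to 0.69), Lamb2 (-0.0092 to 0.49), Eln (-0.010 to 0.32), Thbs2 (-0.061 to 0.46), Mgp (-0.21 to 1.31), Loxl3 (-0.059 to 0.42) and Mfap2 (-0.69 to 0.93). The number of members called was 0 after quantile normalization, without a filter, under the stricter filter (mean signal of at least 76.6, with 11 members left), with the mean over probe sets and without an intensity trend, where 4, 5, 5, 5 and 4 members had an unadjusted p under 0.05 in limma. It was 0 to 3 with 1 array left out. Over all genes the count was 61 as reported and 4, 0, 2, 13 and 0 under those 5 alternatives in the same order, 94 with 4 times the pseudocount, 619 and 856 without EGFP arrays 1 and 2, and 0 and 2 without OGFRL1 arrays 1 and 2 (922 and 744 at an unadjusted p under 0.05).

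The median was 0.56 for basement membrane under the stricter filter, which left 2 of its genes, and 0.23 for crosslinking as the mean over probe sets. With 1 array left out the medians ranged from 0.27 to 0.47 for all members, 0.27 to 0.62 for elastic fibre, 0.36 to 1.12 for crosslinking and 0.26 to 0.48 for adhesive proteins. The cause was not tested where neither fewer genes nor fewer arrays account for the change. The labels number the arrays 1 and 2 in both groups without saying that a number marks a shared mouse or day. With the replicate number as a block, 1 member (Nid1, adjusted p = 0.0320) and 59 genes passed. Same-numbered arrays deviated in opposite directions (r = -0.276 over 11942 genes, which are not independent), and a crossed replicate block, chosen after seeing the data, called 4 members and 934 genes. Members with signals near the filter, such as Lox, Fmod and Ogn, had probe sets of opposite sign, which limits what their values show.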
